A study of Sus scrofa with 30 samples.

Results

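The genes described here encode the ligands, receptors, inhibitors and effectors of WNT signalling, measured in whole pig embryos (Sus scrofa) collected 8, 10, and 12 days after insemination. They were chosen by symbol alone: the pig genes named WNT, FZD, SFRP, DKK, RSPO, DVL, AXIN or TLE followed by a number, TCF7 and its relatives, and LEF1, LRP5, LRP6, CTNNB1, APC, GSK3B, PORCN, WLS, NOTUM, RNF43, ZNRF3, LGR4 and LGR5. Of the 13103 genes counted over all embryos, 49 met this rule. A further 17 annotated genes with such symbols were not analysed here, namely DKK2, DKK4, FZD9, NOTUM, RSPO2, RSPO4, SFRP2, SFRP4, SFRP5, WNT1, WNT2, WNT8A, WNT8B, WNT9B, WNT10A, WNT10B and WNT16. RNA was sequenced from 30 single embryos, 5 female and 5 male on each of the 3 days. The embryos carried no engineered allele and were flushed from German Landrace by Pietrain gilts. All gilts, the donors of every group alike, had been synchronised with Altrenogest and then given the gonadotropins PMSG and hCG before insemination with semen of a single Pietrain boar, so all embryos share a sire. The 10 embryos of a day came from 4 gilts, so some were full siblings. The gilt of each embryo was not given, and p-values measure the spread between these embryos. Each library was made from a whole embryo, which by the paper's account included the embryonic disc and the trophectoderm. Fewer cells of a type and less RNA per cell therefore cannot be told apart.

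WNT proteins are secreted lipid-modified ligands that bind Frizzled receptors. When a Frizzled joins the LRP5 or LRP6 co-receptor, the complex of AXIN, APC and GSK3B that marks β-catenin (CTNNB1) for destruction is held back, and β-catenin enters the nucleus to act with TCF and LEF factors. Several genes that the pathway switches on, AXIN2, RNF43, ZNRF3, LGR5 and NKD2 among them, themselves regulate it. R-spondins and their LGR receptors keep the ligases RNF43 and ZNRF3 from removing Frizzled receptors, while SFRP and DKK proteins block ligand or co-receptor outside the cell. In mammalian embryos WNT signals are known for their part in forming the primitive streak, and in the pig the days studied span the change of the blastocyst from a sphere to a filament.

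Library totals lay between 6068212 counts, in embryo d12_f_245 (embryos are named by day, sex and number, as in the labels), and 34002508 counts. Levels below are CPM, read counts scaled to a common library total, after TMM factors, which correct for a few abundant genes taking up reads. A level of 3 counts, taken as the floor of detection, were worth 0.0823 to 0.194 CPM on Day 8, 0.108 to 0.170 CPM on Day 10 and 0.0872 to 0.434 CPM on Day 12. On Day 12 the libraries of female embryos d12_f_245, d12_f_271 and d12_f_289 stood apart from the other 7. Relative to the mean of the day, genes with a long genomic span were lower against genes with a short span in these 3 libraries, by -0.76 to -0.21 on the log2 scale, than in the others, at 0.09 to 0.41. For 3750 genes, 28.6% of all, the 3 embryos lay entirely above or entirely below the other 7, and 6 WNT pathway genes were among them (APC, AXIN1, DVL1, FZD7, LRP6 and WNT5A). Counts of calls are therefore also given without these embryos.

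The labels named the whole embryo as the tissue, and the marker lists showed which cells contributed. All 10 trophectoderm markers were measured, and their summed level was 20808 to 25449 CPM on Day 8, 32905 to 50347 CPM on Day 10 and 8730 to 26918 CPM on Day 12. The keratins KRT8 and KRT18 made up most of this sum on each day. From Day 10 to Day 12 the medians of GATA2, GATA3 and TFAP2A rose, and those of the other trophectoderm markers fell. The 8 measured of 10 hypoblast markers summed to 1024 to 2082 CPM, 1005 to 1962 CPM and 2208 to 7840 CPM on Days 8, 10, and 12, mostly from APOA1 and COL4A1. Of the hypoblast markers, GATA6 alone had a lower median on Day 12 than on Day 10 (43.9 against 57.1 CPM). All 10 markers of the embryonic disc were measured, and they summed to 384 to 555 CPM, 708 to 1683 CPM and 520 to 1145 CPM on the 3 days. DNMT3B made up most of the sum on Days 8 and 12, with LIN28A next on Day 8. On Day 10 TDGF1 had the highest median of the disc markers, 593 CPM against 342 CPM for DNMT3B. GDF3, OTX2, NANOG, NODAL and SOX2, 5 of the 10 disc markers, were above the floor in all embryos on Days 8 and 10 and at or below it in all 10 embryos on Day 12. The other disc markers, POU5F1, LIN28A, DPPA4, TDGF1 and DNMT3B, were above the floor in every Day 12 embryo. POU5F1 was at 10.6 to 20.6 CPM on Day 10 and 0.611 to 4.05 CPM on Day 12, while the median of DNMT3B rose from 342 to 754 CPM. Of the maternal lists, 8 of 10 uterine epithelium markers were measured and summed to 23.3 to 63.9 CPM, 24.7 to 55.0 CPM and 33.2 to 145 CPM, with PGR and PAX8 not analysed, and SOX17 and FOXA2 are also hypoblast genes. Of the blood cell markers, 4 of 10 were measured and summed to 37.5 to 51.6 CPM, 32.6 to 45.9 CPM and 30.8 to 74.2 CPM, mostly from ITGAM, while PTPRC and CD3E were not analysed. The part of these cell types in the results below was not tested.

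A larger share of the WNT pathway genes than of all genes was called between days, and more of them rose than fell. A gene was called between days when its adjusted p in edgeR's quasi-likelihood test over all 13103 genes was under 0.001 and its log2 fold change was beyond 1 in either direction. Between Days 8 and 10, 14 of the 49 genes were called (28.6%, against 14.1% of all genes). Of these, 9 rose (9.88% of all genes did) and 5 fell (4.20% of all genes). Between Days 10 and 12, 22 genes were called (44.9%, against 23.3% of all genes), of which 17 rose (14.9% of all genes) and 5 fell (8.39% of all genes). RSPO1 and WNT7B, both among the 17, were at or below the floor in every embryo of Days 8 and 10. The paper states that genes were filtered by a CPM cutoff, which these genes could pass only through Day 12. Their rises are therefore not independent of that filter. Over the whole interval from Day 8 to Day 12, 29 genes were called (59.2%, against 32.5% of all genes), 23 higher (22.0% of all genes) and 6 lower (10.4% of all genes) on Day 12. The median log2 fold change of the 49 genes was 0.15, 0.63 and 0.91 in the 3 comparisons, against 0.03, 0.04 and 0.09 for all genes. These medians came out at the same 2 decimals with genes at the floor set to their lower bounds. The embryos of both days did not overlap for 16 genes between Days 8 and 10 (22.0% of all genes), 16 between Days 10 and 12 (16.6% of all genes) and 19 between Days 8 and 12 (31.7% of all genes). Without the 3 Day 12 female embryos the counts of calls were 15, 22 and 31. The share of all genes called was not worked out for that fit.

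**Figure D1:**
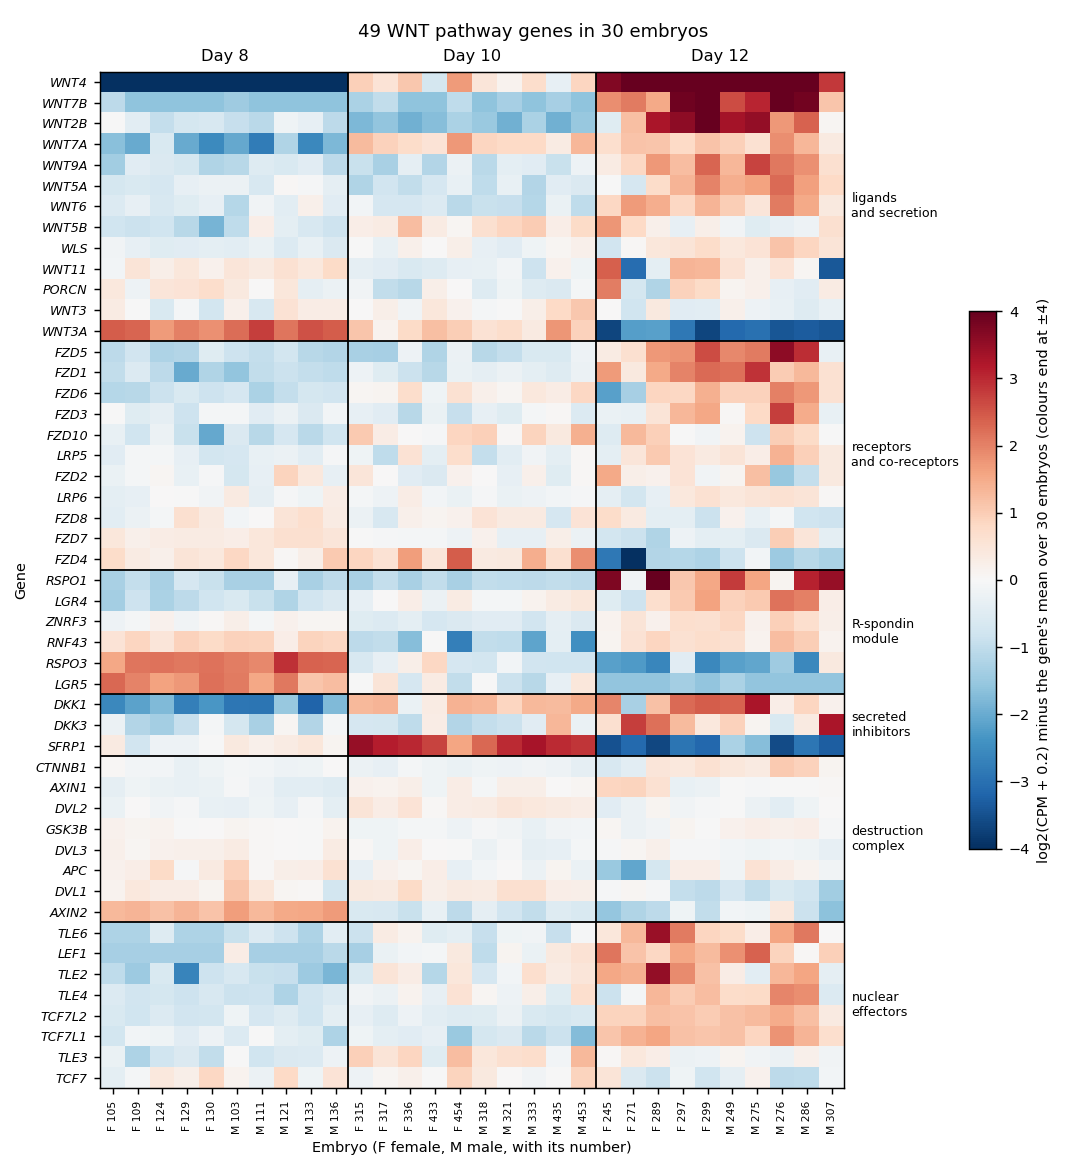
Level of each of the 49 genes (rows, grouped by role) in each of the 30 embryos (columns), as log2(CPM + 0.2) minus the gene's mean over all embryos, with colours ending at 4 in either direction. WNT4 changes from blue on Day 8 to red on Day 12, WNT3A, LGR5 and RSPO3 change from red to blue, and SFRP1 and RNF43 stand out on Day 10 in opposite colours.

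Taking both intervals together, 19 of the 49 genes were called in neither (38.8%, against 68.8% of all genes). Among the other 30, the pattern met most often was no call to Day 10 and a rise to Day 12, with 14 genes (28.6%, against 12.1% of all genes, where it was also the called pattern met most often). A rise to Day 10 without a further call was met in 6 genes, 12.2% against 5.17% of all genes (DKK1, FZD6, FZD10, TLE3, WNT5B and WNT7A), and WNT4 and LGR4 rose in both intervals. WNT3A and LGR5 fell in both, AXIN2 and RSPO3 fell to Day 10 only, and DVL1 and FZD4 to Day 12 only. Of the genes that turned, SFRP1 rose and then fell, whereas RNF43 fell and then rose.

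**Figure D2:**
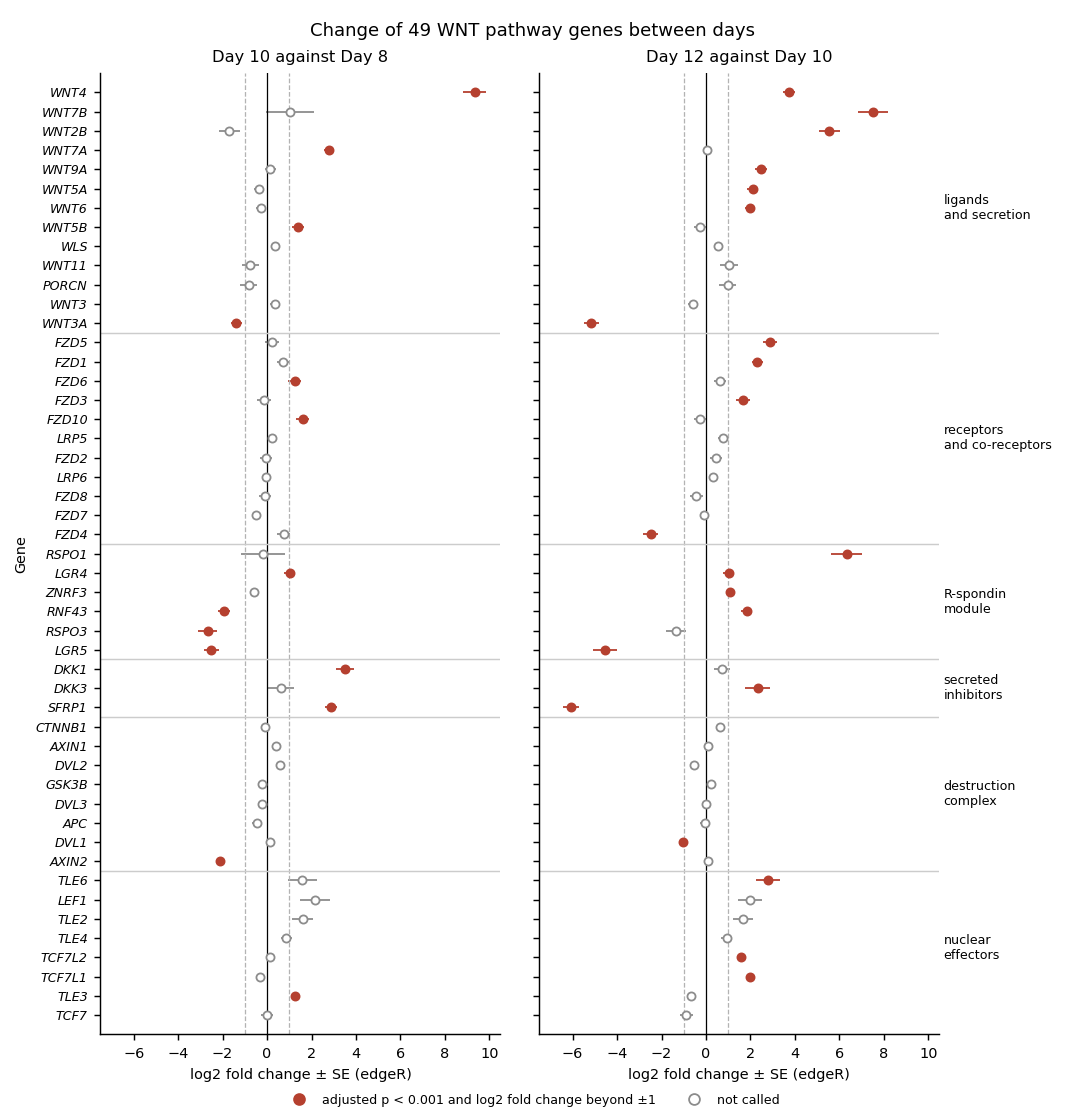
Log2 fold change with its standard error for the 49 genes, grouped by role, on Day 10 against Day 8 (left) and Day 12 against Day 10 (right), n = 10 embryos a day, with dashed lines at 1 in either direction. Filled points mark the 14 and 22 genes called.

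The ligand WNT4 went from the floor of detection to a clear signal over the days studied. WNT4 (chromosome 6, 80110238 to 80138165 in Sscrofa11.1) was at 0 to 0.0395 CPM on Day 8 with a median of 0, at 3.41 to 18.8 CPM with a median of 8.86 on Day 10, and at 41.6 to 212 CPM with a median of 119 on Day 12. All 10 Day 8 embryos were at or below the floor, every Day 10 embryo was above it, and every Day 12 embryo was above every Day 10 embryo. Against the floor per library, WNT4 was at least 65.8-fold higher on Day 10 than on Day 8 and at least 874-fold higher on Day 12. From Day 10 to Day 12 its log2 fold change was 3.73 (SE 0.26, adjusted p = 1.3e-13). WNT4 is known for its roles in the kidney and the female reproductive tract.

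WNT3A, the ligand linked to mesoderm formation at the primitive streak, ran the other way. It was at 8.25 to 17.5 CPM (median 12.3) on Day 8, 2.62 to 8.53 CPM (median 4.42) on Day 10 and 0 to 0.377 CPM (median 0.0766) on Day 12. The log2 fold change was -1.40 (SE 0.25, adjusted p = 2.1e-05) to Day 10, where the highest Day 10 value passed the lowest Day 8 value, and -5.16 (SE 0.34, adjusted p = 3.6e-14) to Day 12, where the days did not overlap. On Day 12, 7 of the 10 embryos were at or below the floor. Its neighbour WNT9A lies 25631 bases away on chromosome 2 with no annotated gene in between (WNT9A from 51102757 to 51128346, WNT3A from 51153978 to 51203678), and it rose as WNT3A fell. WNT9A was at 0.751 to 1.61 CPM on Day 8, 0.819 to 1.95 CPM on Day 10 and 2.89 to 15.9 CPM (median 7.05) on Day 12, a log2 fold change of 2.48 (SE 0.26, adjusted p = 1.4e-09) in the last interval.

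The ligands WNT7A and WNT5B rose by Day 10 and were not called afterwards. WNT7A, known for its role in patterning the limb and the uterus, went from 3.87 to 18.4 CPM (median 6.81) on Day 8 to 35.0 to 92.9 CPM (median 50.1) on Day 10, and lay at 35.7 to 102 CPM (median 57.5) on Day 12. Its log2 fold change was 2.79 (SE 0.24, adjusted p = 6.0e-11) and then 0.07 (SE 0.22). WNT5B, a ligand of the branch that does not act through β-catenin, was at 1.46 to 6.91 CPM (median 3.20), 6.12 to 13.98 CPM (median 8.29) and 4.04 to 20.3 CPM (median 5.92) on the 3 days. It rose by 1.39 (SE 0.26, adjusted p = 4.0e-05) on the log2 scale to Day 10, with the days overlapping. This call was lost in each sex alone and when tested against a log2 fold change of 1. The WNT5B difference between Days 8 and 12, 1.12 on the log2 scale (adjusted p = 3.1e-04), was no longer called without female embryo d12_f_245, which held the highest Day 12 value (0.85, adjusted p = 9.0e-04).

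A larger set of ligands rose between Days 10 and 12. WNT7B, which signals between epithelium and mesenchyme in several organs, was at or below the floor in every embryo on Days 8 and 10 and at 1.12 to 26.5 CPM (median 4.19) on Day 12, at least 49.8-fold higher than on Day 10. WNT2B was at 0.316 to 0.892 CPM (median 0.492) on Day 8, 0.0869 to 0.259 CPM (median 0.150) on Day 10 and 0.579 to 17.2 CPM (median 7.92) on Day 12. Its Day 10 values lay below all Day 8 values without a call (log2 fold change -1.70, adjusted p = 0.0039), and its rise to Day 12 was 5.56 (SE 0.49, adjusted p = 3.0e-11) on the log2 scale. WNT2B was at or below the floor in 6 of 10 Day 10 embryos, with 35 counts in all 10, so the size of both steps is poorly determined. WNT5A, another ligand of the β-catenin independent branch, rose by 2.10 (SE 0.25, adjusted p = 1.3e-08) from 2.88 to 5.61 CPM (median 4.13) on Day 10 to 4.20 to 33.8 CPM (median 18.7) on Day 12. On Day 8 WNT5A was at 4.18 to 7.05 CPM (median 5.38), and its lowest Day 12 values, in female embryos d12_f_271 and d12_f_245, lay among those of the earlier days. WNT6, expressed in ectodermal epithelia of many embryos, was at 18.2 to 47.2 CPM (median 29.7), 18.5 to 37.6 CPM (median 23.7) and 53.2 to 173 CPM (median 92.4), a rise of 1.96 (SE 0.19, adjusted p = 2.2e-10) to Day 12 with no overlap.

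**Figure D3:**
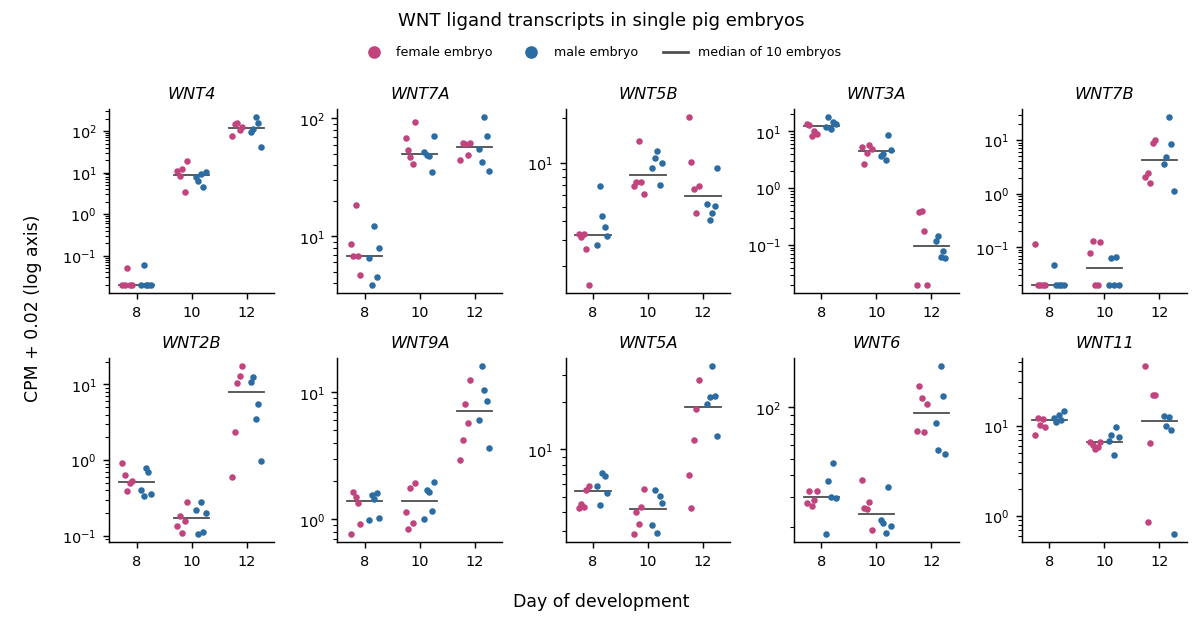
CPM + 0.02 on a log axis for 10 WNT ligands in each female (pink) and male (blue) embryo on Days 8, 10, and 12, with a line at the median of 10 embryos. WNT4 rises over both intervals, WNT3A falls over both, and WNT11 spreads on Day 12 from 0.619 to 45.1 CPM.

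The ligands WNT11 and WNT3 and the secretion genes PORCN, which attaches the lipid to WNT proteins, and WLS, which carries them to the cell surface, were not called in either interval. WNT11 spread widely on Day 12, from 0.619 CPM in male embryo d12_m_307 and 0.840 CPM in female embryo d12_f_271 to 45.1 CPM in female embryo d12_f_245, with a median of 11.12 CPM. On Day 10 it lay at 4.74 to 9.58 CPM, so the Day 12 values reached both above and below that range. Median levels of WLS were 85.8, 113 and 162 CPM on Days 8, 10, and 12, those of WNT3 1.86, 2.01 and 1.35 CPM, and those of PORCN 0.746, 0.365 and 0.592 CPM. In all, 3 of the 13 ligand and secretion genes rose and 1 fell to Day 10, where 9.88% of all genes rose and 4.20% fell. To Day 12, 6 rose and 1 fell, where 14.9% of all genes rose and 8.39% fell.

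In the R-spondin branch 1 receptor and 1 ligand fell and another ligand rose. LGR5, an R-spondin receptor known as a stem cell marker, was at 1.08 to 2.72 CPM (median 1.99) on Day 8 and 0.0740 to 0.655 CPM (median 0.333) on Day 10, a log2 fold change of -2.51 (SE 0.34, adjusted p = 2.5e-07). On Day 12 it was at or below the floor in all 10 embryos, at least 11.9-fold lower than on Day 8 and at least 2.05-fold lower than on Day 10. RSPO3, an R-spondin ligand, fell by 2.68 (SE 0.43, adjusted p = 4.7e-06) on the log2 scale, from 4.27 to 11.4 CPM (median 6.63) on Day 8 to 0.684 to 2.54 CPM (median 0.782) on Day 10. On Day 12 RSPO3 was at 0.0538 to 1.82 CPM with a median of 0.144, and the difference from Day 10 was not called (-1.37, SE 0.45, adjusted p = 0.0097). RSPO3 was at or below the floor in 6 of 10 Day 12 embryos, with 100 counts in all 10. The size of its changes to Day 12 is therefore poorly determined. The Day 12 maximum came from male embryo d12_m_307, without which the log2 fold change of RSPO3 from Day 8 to Day 12 was -4.77 in place of -4.05. The ligand RSPO1, by contrast, was at or below the floor in every embryo on Days 8 and 10 and at 0.240 to 7.54 CPM (median 2.23) on Day 12, at least 21.7-fold higher than on Day 10.

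The remaining R-spondin receptor and both ligases took other courses. RNF43, the ligase that clears Frizzled receptors from the membrane, fell and then rose, with 7.57 to 12.1 CPM (median 11.3) on Day 8, 0.772 to 6.23 CPM (median 2.92) on Day 10 and 6.80 to 14.9 CPM (median 9.72) on Day 12. Its log2 fold changes were -1.94 (SE 0.26, adjusted p = 2.3e-07) and 1.83 (SE 0.26, adjusted p = 3.2e-07), and the Day 10 embryos lay below all others. The related ligase ZNRF3 had its lowest values on Day 10 as well, at 6.37 to 8.49 CPM (median 7.50) after 9.39 to 12.9 CPM (median 11.4) on Day 8. The step to Day 10 was smaller than the limit for a call (-0.58, SE 0.10, adjusted p = 1.9e-05), and the step to 11.9 to 21.2 CPM (median 16.4) on Day 12 was called at 1.07 (SE 0.10, adjusted p = 1.6e-10). LGR4, the R-spondin receptor found in many tissues, was at 10.9 to 19.0 CPM (median 15.5), 22.5 to 39.3 CPM (median 30.2) and 16.0 to 129.2 CPM (median 56.7). Its log2 fold changes, 1.02 (SE 0.25, adjusted p = 9.4e-04) and 1.03 (SE 0.25, adjusted p = 7.1e-04), sat at the limit. Leaving out 1 embryo at a time ended the first call in 22 of 30 fits, with values down to 0.98 without Day 10 male embryo d10_m_453, and the second in 12 of 30 fits, with values down to 0.84 without Day 12 male embryo d12_m_276.

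The secreted inhibitors SFRP1 and DKK1 rose by Day 10, and SFRP1 fell again by Day 12. SFRP1, which binds WNT ligands outside the cell, went from 2.08 to 5.00 CPM (median 4.04) on Day 8 to 11.4 to 43.0 CPM (median 30.003) on Day 10 and down to 0.108 to 1.38 CPM (median 0.238) on Day 12. It rose by 2.87 (SE 0.29, adjusted p = 9.9e-10) and fell by 6.08 (SE 0.35, adjusted p = 1.6e-15) on the log2 scale, with no overlap between any 2 days. DKK1, which blocks the LRP co-receptors, rose by 3.49 (SE 0.40, adjusted p = 2.0e-08) from 1.496 to 5.30 CPM (median 2.68) on Day 8 to 12.8 to 44.9 CPM (median 38.6) on Day 10. On Day 12 DKK1 spread from 6.12 CPM in female embryo d12_f_271 to 151 CPM in male embryo d12_m_275 around a median of 47.8 CPM, and the step from Day 10 was not called (0.71, SE 0.36, adjusted p = 0.086). DKK3, a relative whose action on WNT is less settled, was at 0.0618 to 0.517 CPM (median 0.189), 0.103 to 1.51 CPM (median 0.222) and 0.246 to 6.38 CPM (median 0.981). Its rise of 2.32 (SE 0.54, adjusted p = 5.0e-04) to Day 12 came with overlapping days. DKK3 was at or below the floor in 5 of 10 Day 8 and 3 of 10 Day 10 embryos, so the size of this rise is poorly determined. Leaving out 1 embryo at a time ended the DKK3 call in 10 of 30 fits, with values from 1.88 without Day 12 male embryo d12_m_307 to 2.88 without Day 10 male embryo d10_m_435. It was also lost without the 3 Day 12 female embryos (2.03, adjusted p = 0.0031).

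**Figure D4:**
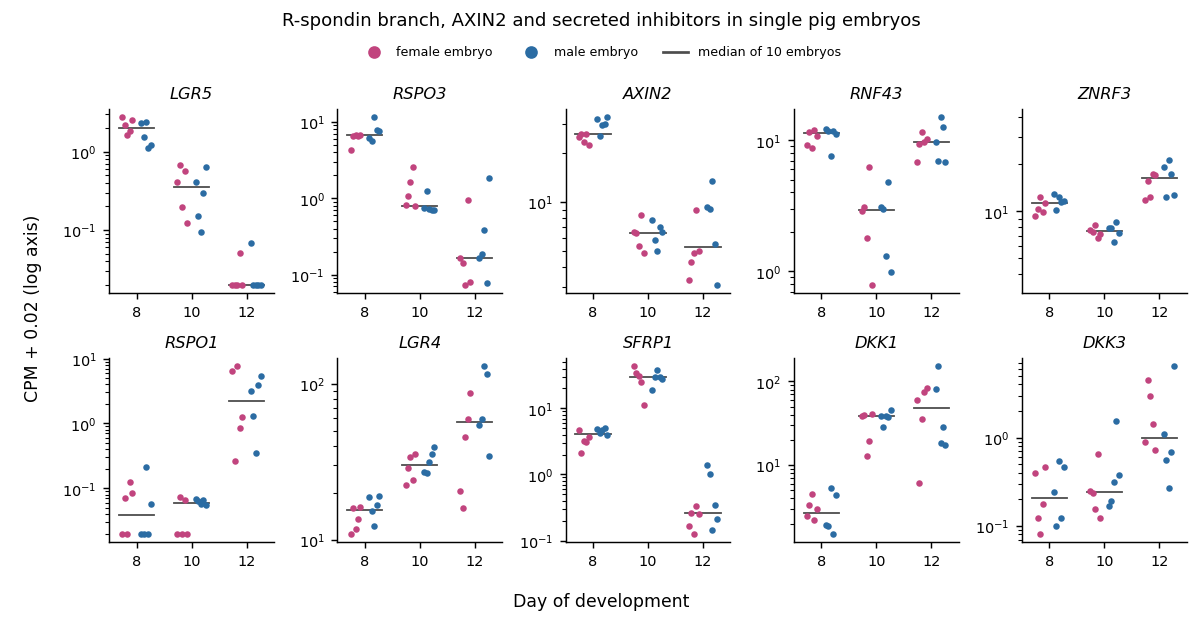
CPM + 0.02 on a log axis for the R-spondin branch, AXIN2 and the secreted inhibitors in each female (pink) and male (blue) embryo on Days 8, 10, and 12, with a line at the median of 10 embryos. LGR5, RSPO3 and AXIN2 are lower in every Day 10 embryo than in any Day 8 embryo, RNF43 has its lowest values on Day 10, and SFRP1 has its highest there.

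AXIN2, the scaffold gene widely read as a target of β-catenin, fell early. It was at 22.3 to 33.1 CPM (median 26.4) in the Day 8 embryos, 4.84 to 8.27 CPM (median 6.49) on Day 10 and 3.10 to 13.5 CPM (median 5.25) on Day 12. The log2 fold change to Day 10 was -2.11 (SE 0.20, adjusted p = 3.1e-10), with every Day 10 embryo below every Day 8 embryo, and the step to Day 12 was 0.09 (SE 0.19, adjusted p = 0.72). The rest of the group labelled destruction complex, which also took in CTNNB1 and the DVL genes, was mostly not called. Of the other 7 genes in this group, none was called to Day 10. DVL1, a Dishevelled adaptor that relays the receptor signal, was called to Day 12.

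DVL1 was at 24.96 to 91.1 CPM (median 48.4) on Day 8, 48.9 to 71.1 CPM (median 53.8) on Day 10 and 15.9 to 43.9 CPM (median 24.9) on Day 12, a log2 fold change of -1.02 (SE 0.18, adjusted p = 9.4e-06) in the last interval. The call, at the limit, was lost in 8 of the 30 fits that left out 1 embryo, with values up to -0.95 without male embryo d12_m_307, and with library size alone as the scaling (-0.83). Within Day 12 DVL1 was at 40.1 to 43.9 CPM in female embryos d12_f_245, d12_f_271 and d12_f_289 and at 15.9 to 27.5 CPM in the other 7. The same 3 embryos held the highest AXIN1 values, 41.6 to 50.6 CPM against 22.1 to 27.97 CPM, and the lowest APC values, 7.38 to 19.6 CPM against 28.8 to 47.7 CPM. CTNNB1, which encodes β-catenin, had medians of 389, 367 and 571 CPM on Days 8, 10, and 12 and a log2 fold change of 0.63 (SE 0.13, adjusted p = 1.5e-04) to Day 12, under the limit for a call. GSK3B, the kinase of the complex, varied little within a day, at 88.0 to 100 CPM, 73.6 to 85.9 CPM and 76.2 to 108 CPM. Median levels of DVL2 were 15.6, 23.2 and 16.5 CPM and of DVL3 40.2, 33.9 and 33.6 CPM.

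**Figure D5:**
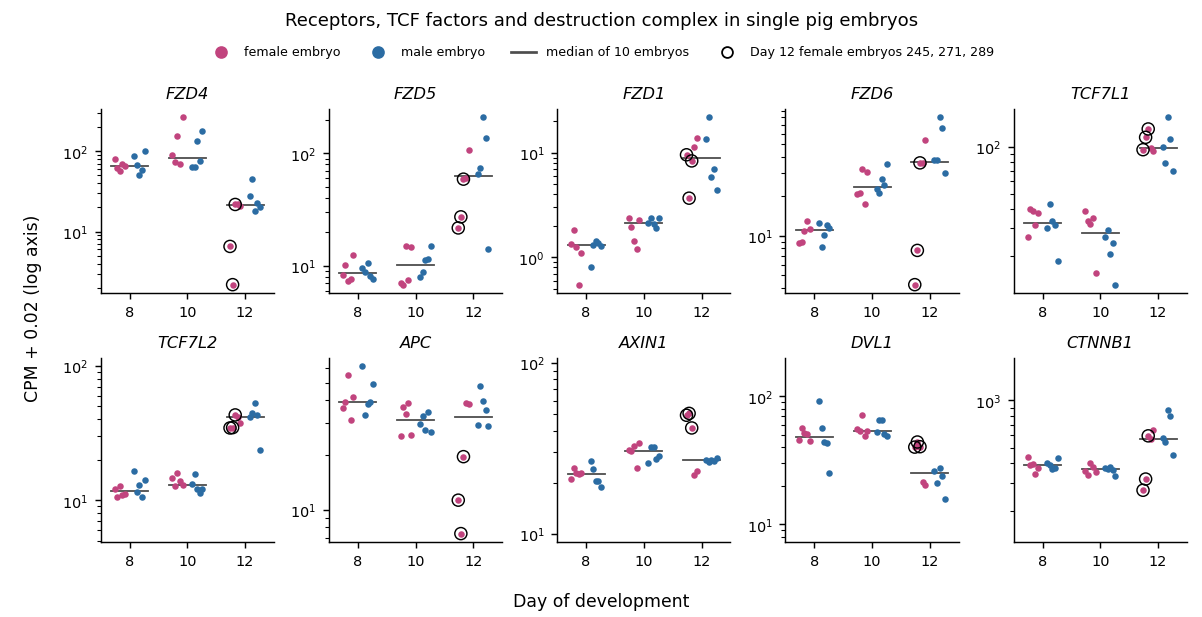
CPM + 0.02 on a log axis for 4 Frizzled receptors, TCF7L1, TCF7L2, APC, AXIN1, DVL1 and CTNNB1 in each female (pink) and male (blue) embryo on Days 8, 10, and 12, with a line at the median of 10 embryos and circles around Day 12 female embryos d12_f_245, d12_f_271 and d12_f_289. The circled embryos lie apart from the other 7 on Day 12 for APC, AXIN1 and DVL1, and FZD4 is lower in every Day 12 embryo than in any Day 10 embryo.

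The Frizzled receptors differed from one another in when and in which direction they changed. FZD4, also the receptor for norrin, was at 50.6 to 102 CPM (median 66.5) on Day 8 and 62.9 to 264 CPM (median 82.9) on Day 10, and fell by 2.49 (SE 0.33, adjusted p = 1.0e-07) on the log2 scale to 2.16 to 45.4 CPM (median 21.1) on Day 12. Its highest value was in Day 10 female embryo d10_f_454 and its lowest in Day 12 female embryo d12_f_271. FZD5, a receptor with a known part in yolk sac and placental development, was at 7.26 to 12.5 CPM (median 8.53) and 6.77 to 15.1 CPM (median 10.1) on Days 8 and 10, and at 14.01 to 209 CPM (median 63.3) on Day 12. The FZD5 rise was 2.88 (SE 0.33, adjusted p = 7.6e-09), and male embryo d12_m_307, the lowest on Day 12, lay within the Day 10 range. Female embryos d12_f_245 and d12_f_271 followed at 21.7 and 27.2 CPM, and male embryo d12_m_276 was the highest.

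FZD1 and FZD3 also rose to Day 12. FZD1 was at 0.528 to 1.82 CPM (median 1.28), 1.18 to 2.37 CPM (median 2.09) and 3.66 to 21.7 CPM (median 8.95), with a log2 fold change of 2.32 (SE 0.25, adjusted p = 2.9e-09) and no overlap between Days 10 and 12. FZD3, known for its part in axon guidance, was at 1.004 to 1.92 CPM (median 1.55), 0.801 to 2.01 CPM (median 1.44) and 1.55 to 14.6 CPM (median 3.18), a rise of 1.66 (SE 0.32, adjusted p = 3.8e-05) with Days 10 and 12 overlapping. Without male embryo d12_m_276, the highest on Day 12, the rise of FZD3 was 1.25 and still called. The FZD3 call was lost in each sex alone and when tested against a log2 fold change of 1. FZD6 and FZD10 rose earlier. FZD10 went from 0.318 to 1.64 CPM (median 1.04) on Day 8 to 1.91 to 5.56 CPM (median 3.15) on Day 10, a rise of 1.60 (SE 0.28, adjusted p = 1.9e-05), and lay at 1.02 to 5.04 CPM (median 2.06) on Day 12. Its call to Day 10 was likewise lost in each sex alone and when tested against a log2 fold change of 1. FZD6, a receptor of the planar polarity branch, was at 8.17 to 12.9 CPM (median 10.9), 17.5 to 35.1 CPM (median 23.6) and 4.20 to 79.8 CPM (median 36.7). Its rise to Day 10 was 1.24 (SE 0.29, adjusted p = 5.9e-04), with no overlap. Leaving out 1 embryo at a time ended the FZD6 call in 10 of 30 fits, where the highest adjusted p was 0.0014, and scaling by library size alone ended it too (1.05, adjusted p = 0.0019).

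The receptors FZD2, FZD7 and FZD8 and the co-receptors LRP5 and LRP6 were not called in either interval. Median levels on Days 8, 10, and 12 were 25.2, 24.9 and 36.1 CPM for LRP6, 8.52, 8.75 and 15.0 CPM for LRP5, and 26.5, 19.0 and 15.2 CPM for FZD7. Medians of FZD2 were 3.14, 3.61 and 4.15 CPM and those of FZD8 0.820, 0.834 and 0.513 CPM. In all, 2 of the 11 receptors and co-receptors rose and none fell to Day 10, where 9.88% of all genes rose and 4.20% fell. To Day 12, 3 rose and 1 fell, where 14.9% of all genes rose and 8.39% fell.

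At the nuclear end, TCF7L1 and TCF7L2 rose by Day 12. TCF7L1, which acts mainly as a repressor, was at 18.4 to 43.0 CPM (median 32.6) and 13.04 to 38.6 CPM (median 27.8) on Days 8 and 10 and at 69.4 to 154 CPM (median 98.5) on Day 12, a log2 fold change of 1.97 (SE 0.18, adjusted p = 3.6e-11). TCF7L2, the main effector in gut epithelium, was at 10.6 to 16.4 CPM (median 11.7), 11.2 to 16.0 CPM (median 13.04) and 23.8 to 52.6 CPM (median 41.5), a rise of 1.56 (SE 0.11, adjusted p = 1.4e-13). For both genes every Day 12 embryo lay above every Day 10 embryo. TCF7, an activator best known in T cells, was not called and had medians of 0.659, 0.583 and 0.340 CPM. LEF1, a TCF relative often raised by WNT signals, was at or below the floor in 9 of 10 Day 8 embryos and reached 0.320 to 2.37 CPM (median 0.951) on Day 12. LEF1 was called only between Days 8 and 12 (4.14, SE 0.64, adjusted p = 1.2e-06). That value rested on male embryo d08_m_103, the one Day 8 embryo above the floor. Without it LEF1 was at least 7.97-fold higher on Day 12 than on Day 8.

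The TLE corepressors, Groucho relatives that silence TCF targets, were called upward where they were called. TLE3 rose by 1.25 (SE 0.17, adjusted p = 4.8e-07) on the log2 scale, from 39.8 to 93.8 CPM (median 62.9) on Day 8 to 67.0 to 231 CPM (median 151) on Day 10, and lay at 79.8 to 126 CPM (median 91.9) on Day 12. TLE6, which in oocytes belongs to the subcortical maternal complex, was at 0 to 0.149 CPM (median 0.0274), 0.0456 to 0.382 CPM (median 0.186) and 0.271 to 4.95 CPM (median 0.804), a rise of 2.79 (SE 0.52, adjusted p = 2.7e-05) to Day 12. It was at or below the floor in 8 of 10 Day 8 and 5 of 10 Day 10 embryos, so the size of this rise is poorly determined. The TLE6 call was lost in each sex alone and when tested against a log2 fold change of 1. The genes TLE2 and TLE6 lie 828 bases apart on chromosome 2. TLE2 and TLE4 were called between Days 8 and 12 alone, with log2 fold changes of 3.27 (SE 0.48, adjusted p = 3.9e-07) and 1.79 (SE 0.25, adjusted p = 2.7e-07).

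Other genes tied to the pathway gave a mixed picture. The counts for these lists stand against 9.88% of all genes that rose and 4.20% that fell to Day 10, and 14.9% and 8.39% to Day 12. Of 11 measured target genes outside the symbol rule, 1 rose and 2 fell to Day 10, and 4 rose and 4 fell to Day 12. BAMBI, a decoy receptor of TGF-β signalling, fell by 2.53 (SE 0.34, adjusted p = 3.1e-07) to Day 10 and rose by 2.71 (SE 0.34, adjusted p = 5.4e-08) to Day 12, and the oncogene MYC fell by 1.38 (SE 0.21, adjusted p = 2.3e-06) to Day 10. The streak gene T (brachyury) rose by 3.81 (SE 0.56, adjusted p = 1.4e-06) to Day 10, where its mean was 1.38 CPM, and fell by 4.89 (SE 0.64, adjusted p = 7.8e-08) to Day 12. T was at or below the floor in 8 of 10 Day 8 and 9 of 10 Day 12 embryos, so the size of both steps is poorly determined. To Day 12 the cell cycle gene CCND1 rose by 4.55 (SE 0.26, adjusted p = 8.5e-16), the AP-1 subunit FOSL1 by 5.67 (SE 0.50, adjusted p = 3.4e-11) and the hyaluronan receptor CD44 by 3.06 (SE 0.33, adjusted p = 2.7e-09). In the same interval ASCL2 and CDX2, transcription factors of the trophectoderm lineage, fell by 5.28 (SE 0.49, adjusted p = 7.1e-11) and 1.42 (SE 0.17, adjusted p = 1.0e-08), and TNFRSF19 fell by 1.02 (SE 0.21, adjusted p = 1.1e-04).

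Of 21 measured cofactors of the destruction complex and the nucleus, only DACT1 was called to Day 10, where this Dishevelled antagonist fell by 2.60 (SE 0.23, adjusted p = 1.3e-10) from a mean of 32.7 to 5.39 CPM. To Day 12 the β-catenin coactivator BCL9 rose by 1.41 (SE 0.15, adjusted p = 2.7e-09) and CXXC5 by 1.31 (SE 0.16, adjusted p = 1.7e-08), while NKD2, an inhibitor of Dishevelled, fell by 2.57 (SE 0.19, adjusted p = 9.4e-13). Of 14 planar polarity genes, PRICKLE1 alone was called to Day 10, with a rise of 1.89 (SE 0.19, adjusted p = 1.9e-09). To Day 12, 3 rose and none fell, namely PRICKLE1 by 3.43 (SE 0.19, adjusted p = 7.6e-16), the adhesion receptor CELSR2 by 3.29 (SE 0.39, adjusted p = 1.3e-08) and PRICKLE3 by 1.27 (SE 0.10, adjusted p = 6.3e-12). Of 10 other secreted and surface regulators, the co-receptor PTK7 rose to Day 10 by 1.72 (SE 0.25, adjusted p = 1.4e-06) and fell to Day 12 by 1.02 (SE 0.25, adjusted p = 7.9e-04), and the WNT5A co-receptor ROR1 and the glypican GPC3 rose to Day 12 by 2.12 (SE 0.32, adjusted p = 9.7e-07) and 2.63 (SE 0.62, adjusted p = 5.1e-04). The median log2 fold changes of these 4 lists, in the order described, were 0.17, -0.03, -0.13 and 0.20 to Day 10 and -0.09, 0.01, 0.16 and 0.23 to Day 12.

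Embryos of Day 12 differed more from one another in these genes than embryos of the earlier days. The median standard deviation of log2 CPM over the 49 genes was 0.34 on Day 8, 0.39 on Day 10 and 0.73 on Day 12, against 0.23, 0.29 and 0.45 for all genes. Of the 43 genes above the floor in every Day 12 embryo, 22 spanned more than 5-fold between embryos and 10 more than 10-fold (DKK1, DKK3, FZD4, FZD5, FZD6, RSPO1, TLE2, WNT2B, WNT7B and WNT11), while no gene above the floor in every embryo of Day 8 or Day 10 spanned 10-fold. Of the 17 genes that rose to Day 12, 11 were highest in male embryo d12_m_276, and 8 were lowest in male embryo d12_m_307 and 4 each in female embryos d12_f_245 and d12_f_271. The summed level of the 6 measured of 11 symbols listed for streak and mesoderm, mostly HAND1, was also highest in male embryo d12_m_276 (1855 CPM) and lowest in male embryo d12_m_307 (595 CPM), with female embryo d12_f_245 at 653 CPM and female embryo d12_f_271 at 1252 CPM. That list summed to 3.80 to 7.37 CPM on Day 8 and 26.1 to 181 CPM on Day 10. On Day 12 EOMES, one of its streak genes, was at or below the floor in all embryos, and T and LHX1 in 9 of 10. The embryonic disc and blood cell lists also had their highest Day 12 sums in male embryo d12_m_276 (1145 and 74.2 CPM). The trophectoderm, hypoblast and uterine epithelium lists had theirs in other embryos. Whether the WNT pathway genes follow any list was not tested. How many of all risen genes were highest in male embryo d12_m_276 was not counted. Several of the genes that rose were ordered otherwise. DKK3 was lowest in male embryo d12_m_276 (0.246 CPM) and highest in male embryo d12_m_307 (6.38 CPM), and RSPO1 was at 0.328 and 5.30 CPM in these embryos. FZD1 and WNT2B were at 5.78 and 3.45 CPM in male embryo d12_m_276, below the median of the day.

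The design also asked whether female and male embryos differed. Each day had its own table. PORCN, the only X-linked gene of the 49, was in none of them, so the sexes were not compared for it within a day. The tables held 39, 40 and 42 of the 49 genes on Days 8, 10, and 12. None was called between the sexes at an adjusted p under 0.05 in edgeR's quasi-likelihood test, where 0.658%, 0.223% and 0.123% of all genes were, and none in DESeq2. At an unadjusted p under 0.05 there were 2, 0 and 3 of these genes, 5.13%, 0% and 7.14% of those measured, against 4.59%, 2.36% and 22.7% of all genes. The embryos of both sexes overlapped for every gene except DVL3 on Day 12 (0, 0 and 1 genes, against 1.59%, 0.848% and 4.62% of all genes), which is named after its values were seen. DVL3 was at 38.6 ± 2.90 CPM in females and 32.6 ± 2.02 CPM in males (SD, n = 5 each). The smallest unadjusted p on Day 8 was that of AXIN2, at 25.6 ± 1.88 CPM in females and 31.4 ± 3.28 CPM in males (SD, n = 5 each), and its log2 fold change, -0.29 (SE 0.09), did not pass in edgeR (adjusted p = 0.49). Without the 3 Day 12 female embryos that stood apart, none of the 42 genes was called on Day 12 either, with 2 females left against 5 males.

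Whether the change between days differed between females and males was tested as an interaction. In the fit of all 6 groups, the interaction of sex and day was called for none of the 49 genes and for 0% of all genes in each pair of days at an adjusted p under 0.05. At an unadjusted p under 0.05 there were 1, 6 and 4 of these genes for Days 8 and 10, 10 and 12, and 8 and 12, against 100, 2473 and 2863 genes in all. The smallest adjusted p was 0.13 in edgeR, for WNT5B between Days 8 and 12.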

How the data were processed

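Whole embryos gave TruSeq stranded mRNA libraries, read as 100-base single ends, trimmed and mapped by the authors to Sscrofa11.1 with NCBI annotation. The aligner, the counter and its strand setting are not given in the sources used here. The deposited files hold raw read counts per gene in 4 tables, 1 over all embryos and 1 for each day, with no other columns of samples (0). The paper states that a CPM cutoff was used as a filter, without giving its value. Genes low on all days can therefore be missing. Symbols and coordinates came from the RefSeq table of Sscrofa11.1, by gene identifier. Of the 49 genes, 16 overlap another annotated gene, 10 of them among the 30 called in either interval between adjacent days (AXIN2, DVL1, FZD1, LGR4, LGR5, TCF7L2, WNT2B, WNT5A, WNT5B and WNT7B); without the strand setting, reads in the overlap cannot be assigned.

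Counts were analysed in R 4.3.3 with edgeR 4.0.16 (TMM factors, robust quasi-likelihood fit of 3 day groups over all 30 embryos, Benjamini-Hochberg adjustment over all genes). Sexes were compared in each day's own table, and the interaction in a fit of 6 groups. Levels are TMM-scaled CPM. Log2 values per embryo used a prior count of 2. A lower bound for a gene at or below 3 counts in every library of a day divides the mean CPM by the mean CPM of 3 counts per library, and covers counting error only. Alternatives were DESeq2 1.42.0, edgeR's robust GLM, RLE factors, library size alone, 2 low-count filters, sex as a term, 2 days per fit, a test against the fold limit, each sex alone, and leaving out embryos. No 2 embryos of a group were near copies (60 pairs, lowest chi-square per degree of freedom 7.64).

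The genes were described by role, with values and tests for those called between adjacent days. Of the other lists, up to 4 called genes in each direction were named. Genes, lists and tests were chosen with earlier results of these data known, and the embryos to leave out on Day 12 after their values were seen. Levels are not compared between genes, because transcript lengths were not used. Promoter sequences were not analysed here. Scripts were tested on simulated data, and figures drawn with matplotlib.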

Additional observations from a re-analysis of the deposited data

Results flagged for a closer look

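For each of the 30 genes called between adjacent days, the highest and the lowest of the 10 embryos of each day were compared with the nearest other embryo by Dixon's gap test on log2 CPM. Of the 90 sets of embryos, 2 held an embryo set off from the rest, while chance alone gives about 1 in 20. Day 8 female embryo d08_f_130 had 0.318 CPM of FZD10, below the 0.790 to 1.64 CPM of the other 9 Day 8 embryos. Day 8 female embryo d08_f_105 had 0.0939 CPM of WNT7B, where the others had 0 to 0.0274 CPM, all at or below the floor of 3 counts.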

How the results depend on the processing

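No call turned direction in any alternative. The count of genes called between Days 8 and 10, 14 as reported, was 7 when tested against a log2 fold change of 1, 7 in female and 9 in male embryos alone, and that between Days 10 and 12, 22 as reported, was 14 in female embryos alone. The fits of a single sex have fewer samples. The share of all genes called was not worked out for the alternatives, so their counts cannot be set against all genes. Leaving out 1 embryo at a time gave 12 to 14 calls between Days 8 and 10, 19 to 23 between Days 10 and 12, 29 to 30 between Days 8 and 12, and 0 between the sexes. In the other alternatives every count stayed within 1.5 times. With library size alone the median log2 fold change of all genes moved from 0.03 to -0.15 (Days 8 and 10) and from 0.04 to 0.24 (Days 10 and 12), and that of the 49 genes from 0.15 to -0.04 and from 0.63 to 0.81. Of all calls between Days 8 and 10, 70.2% were higher on Day 10, and 55.9% with library size alone, where 7 of the 49 genes were called higher and 5 lower. Over 65 calls of single genes in the 3 comparisons of days, 766 of 837 alternative fits other than leaving out 1 embryo kept the call and 71 lost it. No paired analysis was possible because embryo numbers are not shared between groups and the gilt of each embryo was not given. The smallest library on Day 12 limits detection there to 0.434 CPM.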
